A study of Mus musculus with 20 samples.

Results

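Pax genes encode transcription factors that bind DNA through a paired domain and that specify organs and cell lineages in the embryo. They fall into subgroups by sequence: Pax3 with Pax7, Pax4 with Pax6, Pax2 with Pax5 and Pax8, and Pax1 with Pax9. In most tissues they are silent outside the lineages they specify, and developmental regulators of this kind are classic targets of polycomb repressive complex 2 (PRC2), which methylates lysine 27 of histone H3 and needs its subunit EED for this. Hepatocytes are not among the lineages that Pax genes are known to specify. All 9 mouse members, Pax1 to Pax9, were taken by family name from the 46603 gene identifiers of the count tables, with no cut on their values. Pax3 alone was chosen by its measured rise in the knockout, so its values for knockout against wild type are a description without a test.

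The study sequenced liver RNA from male mice aged 2 months, 5 wild-type C57BL/6J animals bought from a vendor (WT) and 5 with a hepatocyte knockout of Eed (KO), made by crossing an Albumin:Cre line with mice whose Eed gene carries loxP sites around exons 3 and 6. Cre is made where the albumin promoter is active, and cells in which it was never active keep Eed. Each genotype gave 5 baseline libraries, made from the tissue cut away (lobes 1, 2 and 3) in a partial hepatectomy (PHx, surgical resection of part of the liver). Another 5 libraries after PHx came from the lobes left in place, 4, 5 and 6. The tissue after PHx was taken at 30 h from 1 mouse, at 40 h from 2 and at 48 h from 2 in each genotype (WT 1 and KO 12 at 30 h, WT 2, WT 3, KO 10 and KO 11 at 40 h, WT 4, WT 5, KO 7 and KO 8 at 48 h, by the mouse numbers of the labels). Genotype cannot be told apart from colony of origin, and the response to PHx cannot be told apart from the lobes sampled.

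Library totals ran from 21634890 to 30461351 counts. Eed was at 14.6 to 23.2 counts per 1000000 counts (CPM, on totals scaled by the trimmed mean of M-values, TMM) in the 10 WT libraries and at 2.74 to 7.52 in the 10 KO libraries. Within WT at baseline, the median correlation of a library with the others of its group was at least 0.984, and the lowest in any group was 0.877, for KO 10 after PHx. That library also had the highest level of the proliferation marker Mki67 among the KO libraries after PHx, 118.5 CPM, where the others had 3.41 to 25.2. Summed over 8 hepatocyte markers, the level was 127046 to 145511 CPM in WT at baseline, 73292 to 118029 in WT after PHx, 75946 to 101728 in KO at baseline and 38401 to 92971 in KO after PHx.

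The promoter windows of RefSeq (GRCm38.p6) cover 7 of the 9 members, and 4 of them are printed: those of Pax2, Pax6 and Pax9, the 3 genes with a window that had the most counts, and that of Pax5, which followed another pattern. Each is the 250 bases before a start site, 5′ to 3′ on the strand of the gene, with every CG dinucleotide in capitals, since CG-rich promoters are a common feature of PRC2 targets.
Pax2, chr19:44755502-44755751, plus strand: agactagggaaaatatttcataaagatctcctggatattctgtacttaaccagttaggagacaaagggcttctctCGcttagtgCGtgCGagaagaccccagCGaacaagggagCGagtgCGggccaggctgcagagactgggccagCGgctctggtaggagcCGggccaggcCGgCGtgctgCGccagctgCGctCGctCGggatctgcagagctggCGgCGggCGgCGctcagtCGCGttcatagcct
Pax6, chr2:105668646-105668895, plus strand: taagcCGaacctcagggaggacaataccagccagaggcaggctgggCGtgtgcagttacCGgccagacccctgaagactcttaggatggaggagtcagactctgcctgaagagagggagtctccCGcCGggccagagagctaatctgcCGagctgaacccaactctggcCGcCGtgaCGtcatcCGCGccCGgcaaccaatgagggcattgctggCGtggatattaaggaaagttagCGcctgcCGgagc
Pax9, chr12:56695221-56695470, plus strand: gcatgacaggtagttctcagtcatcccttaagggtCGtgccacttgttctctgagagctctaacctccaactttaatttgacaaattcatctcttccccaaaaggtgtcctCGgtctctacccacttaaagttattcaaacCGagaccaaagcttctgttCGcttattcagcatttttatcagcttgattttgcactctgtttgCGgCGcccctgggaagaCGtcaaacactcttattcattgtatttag
Pax5, chr4:44710695-44710944, minus strand: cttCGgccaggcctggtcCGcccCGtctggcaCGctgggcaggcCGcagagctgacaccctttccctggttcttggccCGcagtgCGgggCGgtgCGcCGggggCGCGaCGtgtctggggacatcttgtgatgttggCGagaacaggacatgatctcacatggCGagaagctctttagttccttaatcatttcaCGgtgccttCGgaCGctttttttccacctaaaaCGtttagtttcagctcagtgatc

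None of these windows overlaps a GENCODE exon. The Pax2 window held 20 CG, a number that 17.95% of all 32851 RefSeq windows of the same length reached or passed. Pax5 held 19, Pax6 15 and Pax9 7, and the median of all windows was 6. CG, which reads the same on both strands, was found in 92.1% of all windows. Pax2 and Pax6 have more than 1 RefSeq start site, and the windows printed are those closest to the GENCODE start. The other Pax2 windows held 5 and 25 CG and the other Pax6 window 15. The windows of Pax7, Pax1 and Pax8 held 13, 10 and 6, which makes 10 windows in all. Pax7, which was close to absent from all libraries, and Pax5 thus held more CG in these windows than Pax9. The printed Pax9 window starts within the GENCODE gene, as its RefSeq start site lies 3704 bases from the GENCODE start.

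**Figure D1:**
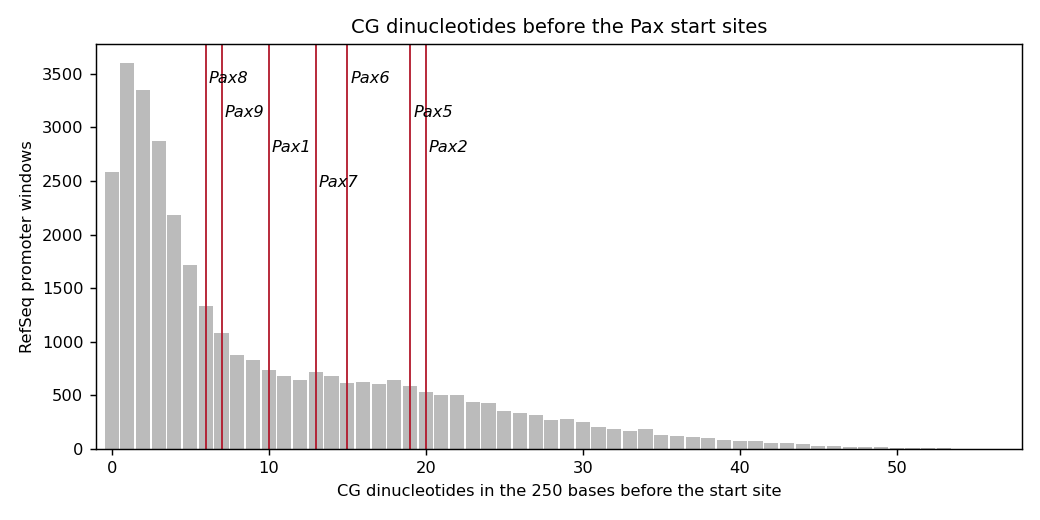
Number of CG dinucleotides in the 250 bases before a start site (x axis) against the number of RefSeq windows (y axis), with grey bars for all 32851 windows and red lines for the window of each of the 7 Pax genes closest to its GENCODE start. The lines run from 6 CG in Pax8 to 20 in Pax2.

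In WT liver the family was close to silent. Pax2, Pax3 and Pax4 had no count in any of the 10 WT libraries, which allows each up to 0.0305 CPM at baseline and 0.0231 after PHx (3 counts over the 5 libraries of the group). Pax5 was the exception, with 0.349 ± 0.162 CPM (SD, n = 5) at baseline. In the KO, 5 genes reached levels that the filter on low counts passed: Pax2, Pax3, Pax6, Pax8 and Pax9. They passed only through the KO libraries, so they had to differ between genotypes. Of these, the 4 other than Pax3 were called (adjusted p under 0.05 with edgeR) as higher in the KO at baseline, where 11.1% of the 14661 genes tested were called higher and 4.89% lower, and likewise after PHx, where 16% were called higher and 8.20% lower. In 3 members at baseline (Pax2, Pax3 and Pax6) and in 5 after PHx, every KO library lay above every WT library, as in 15.6% and 7.05% of all genes tested. Since the filter fixed this outcome and the family was chosen with the contrast known, nothing is read from these counts, and no p is given for a member in KO against WT. Pax1, Pax4, Pax5 and Pax7 did not pass the filter. These are whole-tissue values, in which fewer cells of a type and less RNA per cell cannot be told apart.

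**Figure D2:**
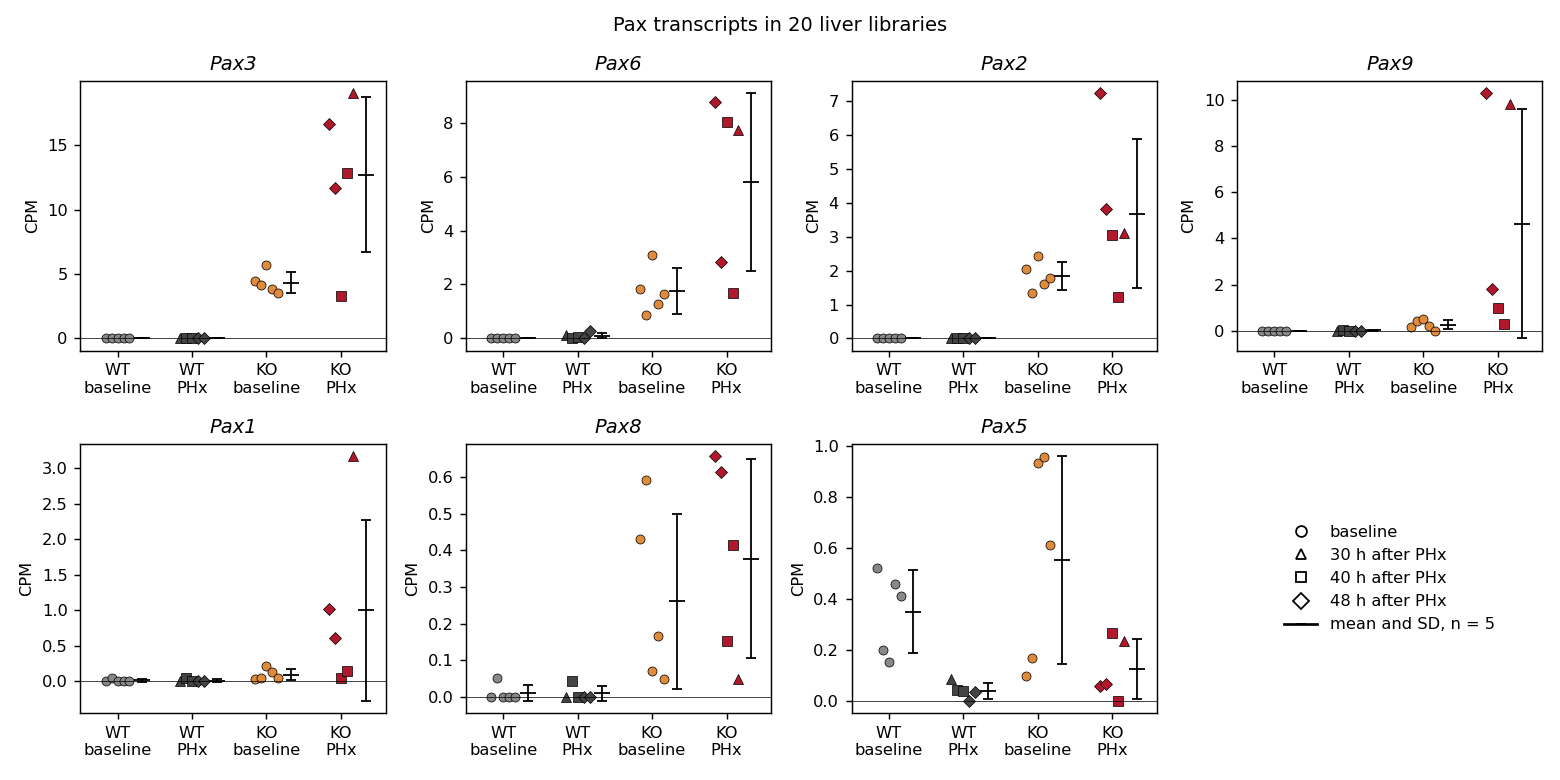
CPM (y axis, one scale per panel) of the 7 Pax genes with more than 1 count, for the 5 libraries of each group (x axis), with circles for baseline, triangles, squares and diamonds for 30 h, 40 h and 48 h after PHx, and the mean with SD (n = 5). The WT libraries lie at or near 0 in all panels except that of Pax5, and the KO libraries after PHx spread more widely than those at baseline for Pax3, Pax6, Pax2, Pax9 and Pax1.

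Pax3 (ENSMUSG00000004872, mm10 chromosome 1, 78101267 to 78197134, minus strand, protein coding), a regulator of neural crest, dorsal neural tube and muscle precursors, had the highest mean level of the Pax genes in the KO at both stages. Its level at baseline was 4.44, 4.18, 5.69, 3.82 and 3.52 CPM in KO 7, KO 8, KO 10, KO 11 and KO 12. After PHx the same mice had 16.7, 11.6, 3.32, 12.8 and 19.02 CPM. Every KO library thus held Pax3 and no WT library did. After PHx, 4 mice were above all baseline libraries, while KO 10, the library with the high Mki67 level, was below all of them. Over the pooled counts of a group, the KO was at least 144.6-fold higher than WT at baseline and at least 542.1-fold higher after PHx, against 3 counts over the WT group.

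Pax3 was picked for its rise in the KO, and the KO libraries after PHx are among those that show this rise. The test of the response to PHx reuses them, so its p is not independent of that choice. The mean of Pax3 in the KO went from 4.33 ± 0.836 to 12.7 ± 6.02 CPM (SD, n = 5 each). This was a log2 fold change of 1.55 (SE 0.40, adjusted p = 0.0147 with edgeR's quasi-likelihood test). With the mouse as a block the log2 fold change was 1.42 and the adjusted p from edgeR 0.0679, so the call was lost. Without KO 10 after PHx it was 1.79 (adjusted p = 0.000663).

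Pax7 (ENSMUSG00000028736, chromosome 4, 139737062 to 139833528, minus strand), the close relative of Pax3 that marks muscle stem cells, had 1 count in all 20 libraries, in KO 11 after PHx. The pair was therefore unequal in these livers. Of 21 genes listed as targets or partners of PAX3 and PAX7, 11 were tested, 4 were called higher and 2 lower in the KO at baseline, and 5 and 2 after PHx. Over all genes tested, 11.1% were called higher and 4.89% lower at baseline, and 16% and 8.20% after PHx. Genes close to absent from WT entered this and the other lists' tests only through the KO libraries, so they had to differ. Nothing is read from the share of tested genes called, and no p is given for such a gene. Over all 21, tested or not, the pooled level was higher in the KO for 13, lower for 4 and at 0 in both for 4 at baseline, and for 12, 4 and 5 after PHx.

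Among the called genes, Zic1, a zinc-finger factor of the dorsal neural tube, was at 5.63 ± 1.18 CPM in KO at baseline with no count in WT (SD, n = 5). Zic2 was at 1.23 ± 0.263 CPM in the same libraries, again with no count in WT at baseline. Tfap2a, a neural crest factor, went from 0.0582 ± 0.0909 CPM in WT after PHx to 5.63 ± 4.95 in the KO. The 2 genes that fell were classic targets. Dct, a melanin enzyme, dropped from 3.36 ± 1.51 to 0.673 ± 0.340 CPM at baseline (adjusted p = 0.00355 with edgeR), and Met, the hepatocyte growth factor receptor, from 86.4 ± 11.2 to 53.6 ± 9.48 CPM (adjusted p = 0.0122). Dct and Met were named after their values were seen. Myf5 and Myod1, the muscle regulators, and Tyr and Tyrp1, the melanocyte enzymes, had no count in any library.

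Pax6 (ENSMUSG00000027168, chromosome 2, 105668900 to 105697364, plus strand) specifies eye, forebrain and pancreatic islet cells. It was not seen in WT at baseline, and in the KO it was at 1.82, 0.845, 3.10, 1.25 and 1.64 CPM in KO 7, KO 8, KO 10, KO 11 and KO 12. After PHx these mice had 8.80, 2.83, 8.04, 1.66 and 7.76 CPM, all 5 above their own baseline. The groups before and after PHx overlapped, since KO 8 and KO 11 after PHx stayed below KO 10 at baseline. Against WT the KO was at least 58.9-fold higher at baseline. Of all members, Pax6 alone had more than 1 count in a single WT library after PHx apart from Pax5, with 2, 0, 1, 0 and 7 counts in WT 1 to WT 5. After PHx the KO was 68.4-fold higher (95% counting interval 37.0 to 143.2). Without WT 5 after PHx, the fitted log2 fold change of KO against WT went from 6.18 to 7.38.

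The response of Pax6 to PHx in the KO was a log2 fold change of 1.74 (SE 0.63, adjusted p = 0.0465 with edgeR), with the mean going from 1.73 ± 0.854 to 5.82 ± 3.31 CPM (SD, n = 5 each). It lay near the threshold. The call was lost when KO 7, KO 8, KO 11 or KO 12 at baseline, or KO 7, KO 10 or KO 12 after PHx, was dropped, where the adjusted p lay between 0.0663 and 0.102. Dropping KO 10 after PHx gave a log2 fold change of 1.59 and the lowest of these p. With the hours after PHx as a term the adjusted p was 0.0512. In WT the fitted response had an adjusted p of 0.0656 with edgeR, on 10 counts in all, 7 of them in WT 5. The difference between the 2 responses had a fitted log2 value of -2.32 (SE 1.41, adjusted p = 0.498), which without WT 5 after PHx was -1.13 (adjusted p = 0.666). It depends on a WT baseline of 0 counts.

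Pax4 (ENSMUSG00000029706, chromosome 6, 28442334 to 28449353, minus strand), the islet factor paired with Pax6, had no count in any of the 20 libraries. Within the list of 19 targets and partners of PAX4 and PAX6, 5 were tested, with 2 called higher in the KO at baseline and 3 after PHx, and none lower. Over all genes 11.1% and 16% were called higher. Of the whole list, the pooled level in the KO at baseline was above WT for 9, below it for 1 and at 0 in both for 9. After PHx these numbers were 13, 1 and 5. Otx2, a regulator of forebrain and eye, had no count in WT and was at 0.0944 ± 0.106 CPM in the KO at baseline, then 9.94 ± 9.27 CPM after PHx (SD, n = 5). Isl1, a factor of islets and motor neurons, was at 0.935 ± 0.147 and 5.64 ± 6.30 CPM in the same groups. The islet hormone genes Ins1 and Ins2 had no count in any library.

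Pax2 (ENSMUSG00000004231, chromosome 19, 44756045 to 44837871, plus strand) is a regulator of kidney, ear and midbrain development. In the KO at baseline it was at 2.06, 1.35, 2.45, 1.62 and 1.78 CPM in KO 7, KO 8, KO 10, KO 11 and KO 12, the most even of the Pax genes relative to its mean after Pax3. After PHx the values were 7.24, 3.81, 3.05, 1.22 and 3.12 CPM. KO 7 stood highest and KO 11 fell below its own baseline, so the 2 stages overlapped. Against WT, the pooled level was at least 61.9-fold higher at baseline and at least 161.1-fold higher after PHx. The response to PHx had a log2 fold change of 0.99 (SE 0.44, adjusted p = 0.107 with edgeR). Leaving out KO 11 after PHx gave 1.18 with an adjusted p of 0.0348, and leaving out KO 7 after PHx gave 0.61 with 0.297.

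Pax8 (ENSMUSG00000026976, chromosome 2, 24420560 to 24475599, minus strand), a thyroid and kidney factor, stayed low. Its counts in KO 7, KO 8, KO 10, KO 11 and KO 12 were 13, 14, 2, 4 and 1 at baseline and 22, 28, 4, 15 and 1 after PHx. KO 7 and KO 8 were the highest at both stages. Its group means were 0.261 ± 0.240 and 0.378 ± 0.272 CPM (SD, n = 5). Per pooled count this was 26.1-fold WT at baseline (95% counting interval 4.38 to 1061) and 55.8-fold after PHx (9.70 to 2236). Each ratio rests on 1 WT count, in WT 2. Without that library, the fitted log2 fold change went from 4.16 to 5.81 at baseline and from 4.95 to 6.35 after PHx. Change after PHx in the KO was 0.55 on the log2 scale (SE 0.71, adjusted p = 0.570 with edgeR). The transcript Gm13415 lies over Pax8 on the opposite strand and was at 0.0286 CPM in WT and 0.507 in KO at baseline. The strand setting of the counting is not given in the sources used here, so reads of the pair cannot be told apart.

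The kidney and thyroid list for PAX2 and PAX8 held 15 genes, of which 7 were tested. In the KO, 3 were called higher at baseline and 4 after PHx, none lower, where 11.1% and 16% of all genes were called higher. Of the 15, 13 had a higher pooled level in the KO at baseline and 2 had no count, and after PHx 12 were higher and 3 lower. Lhx1, a kidney and head organiser factor, was at 1.38 ± 0.743 CPM in the KO at baseline and had no count in WT (SD, n = 5). Gata3, which acts with Pax2 in the nephric duct, went from 0.0192 ± 0.0263 to 1.44 ± 0.549 CPM, and Wnt4, a signal for nephron formation, from 1.09 ± 0.432 to 2.93 ± 1.92 CPM (adjusted p = 0.0202 with edgeR). Of 7 kidney tubule markers, Slc12a1, Slc34a1 and Aqp2 had no count in any group, and the sum of the list was 0.734 to 1.82 CPM in WT and 0.141 to 0.634 in KO at baseline. After PHx it was 0.0709 to 1.22 CPM in WT and 0.209 to 6.03 in KO, highest in KO 8 (6.03) and KO 11 (4.38). Lrp2, an endocytic receptor, made up most of it, with 1.18 ± 0.423 CPM in WT at baseline and 2.10 ± 2.56 in KO after PHx (SD, n = 5).

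Pax5 (ENSMUSG00000014030, chromosome 4, 44524757 to 44710487, minus strand), the B cell factor of this subgroup, followed another order. At baseline its level was 0.520 CPM in WT replicate 1, whose label has no mouse number, and 0.200, 0.154, 0.459 and 0.413 in WT 2 to WT 5. After PHx it was 0.0872, 0.0435, 0.0380, 0 and 0.0343 CPM in WT 1 to WT 5. In KO 7, KO 8, KO 10, KO 11 and KO 12 they were 0.0995, 0.169, 0.931, 0.955 and 0.610 CPM at baseline and 0.0599, 0.0657, 0.267, 0 and 0.236 after PHx. The genotypes overlapped at both stages. After PHx every WT library was below every WT baseline library, as in 10.9% of the genes tested. Each of the 5 KO mice was below its own baseline, a tally for which no share of all genes was computed. Pax5 did not pass the filter. In the fit without a filter the WT response was -2.94 on the log2 scale (SE 0.91, adjusted p = 0.0428 with edgeR), and the KO response was -2.16 (SE 0.81, adjusted p = 0.0736).

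The B cell markers Cd79a, Cd79b, Ms4a1 and Cd22, a subset chosen after the values were seen, had a summed level of 1.60 to 4.30 CPM in WT (median 3.30) and 2.82 to 5.51 in KO (median 3.72) at baseline. After PHx the sum was 0.0709 to 2.14 CPM in WT (median 0.515) and 0.263 to 1.91 in KO (median 1.18). The relation of Pax5 to B cell markers was not tested. With Ly6d and Blnk, listed markers that moved differently, the sum of the 6 went the other way, from a median of 4.59 CPM at baseline to 87.4 after PHx in WT and from 28.2 to 154.9 in KO. Ly6d, a surface protein, was at 0 to 0.650 CPM in WT and 11.9 to 79.5 in KO at baseline, and at 20.4 to 180.3 and 63.1 to 419.5 after PHx. Blnk, an adaptor of B cell receptor signalling, was at 0.229 to 1.95 CPM in WT and 4.48 to 9.35 in KO at baseline, and at 0.217 to 1.304 and 8.27 to 41.7 after PHx. Of 13 genes on the PAX5 list, 9 were tested and 2 were called higher in the KO at each stage, none lower, where 11.1% and 16% of all genes were called higher. Of the 13, 9 had a higher and 4 a lower pooled level in the KO at baseline, and 12 and 1 after PHx. Ebf1, a partner of Pax5 in B cells, was at 0.0163 ± 0.0224 CPM in WT and 1.26 ± 1.00 in the KO after PHx (SD, n = 5).

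**Figure D3:**
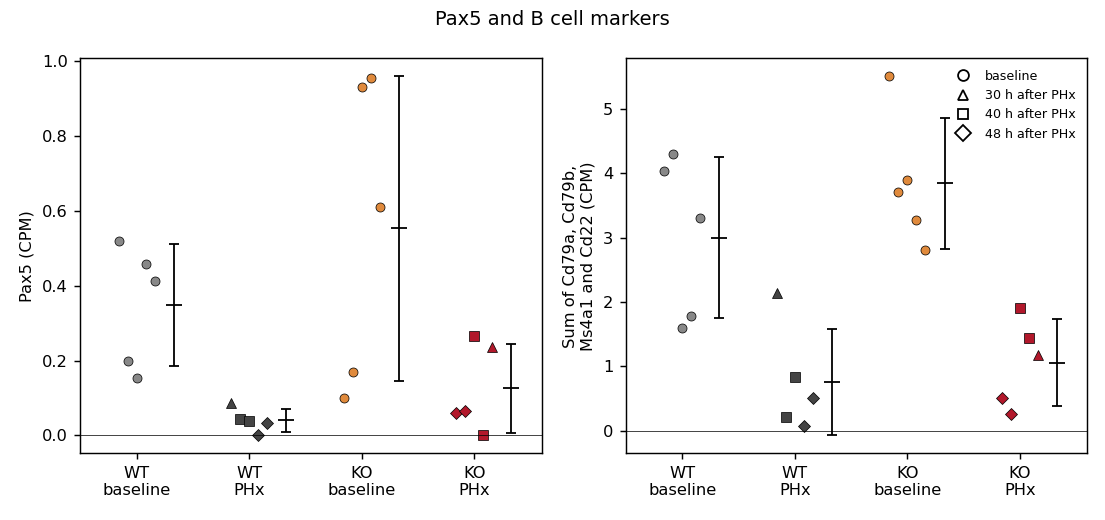
Pax5 (left) and the sum of Cd79a, Cd79b, Ms4a1 and Cd22 (right) in CPM (y axes) for the 5 libraries of each group (x axes), with symbols for hours after PHx and the mean with SD (n = 5). The 4 markers were chosen after their values were seen, and with Ly6d and Blnk added the median sum is higher after PHx (87.4 CPM in WT, 154.9 in KO). The means shown are lower after PHx, though single libraries overlap, with Pax5 means of 0.0406 CPM in WT and 0.126 in KO after PHx.

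Pax9 (ENSMUSG00000001497, chromosome 12, 56691767 to 56712822, plus strand), a regulator of pharyngeal pouch, tooth and skeleton, was scarce in the KO at baseline and spread widely after PHx. It was at 0.166, 0.422, 0.517, 0.208 and 0 CPM in KO 7, KO 8, KO 10, KO 11 and KO 12 at baseline. After PHx it was at 10.3, 1.82, 0.991, 0.277 and 9.84 CPM, higher than baseline in all 5 mice. KO 7 and KO 12 were far above the rest, and KO 11 stayed within the baseline range. The log2 fold change was 4.10 (SE 0.96, adjusted p = 0.00647 with edgeR). Pax9 passed the filter only with the KO libraries after PHx, where it was high, so the filter favoured this call. In the fit without a filter the log2 fold change was 4.07 (adjusted p = 0.00634 with edgeR). With the mouse as a block it was 3.15 (adjusted p = 0.09999), which lost the call.

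Against WT, Pax9 was at least 8.96-fold higher at baseline. After PHx the ratio was 535.2 (95% counting interval 95.7 to 21171), on 1 count in WT. Slc25a21, a mitochondrial carrier gene, overlaps Pax9 on the opposite strand and was at 10.7 CPM in WT and 18 CPM in KO at baseline, and at 7.36 and 6.55 CPM after PHx. The part of such overlap in the Pax9 counts was not tested.

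Pax1 (ENSMUSG00000037034, chromosome 2, 147361925 to 147393295, plus strand), which acts with Pax9 in the sclerotome, was lower still. Its counts in KO 7, KO 8, KO 10, KO 11 and KO 12 were 1, 1, 6, 3 and 1 at baseline and 34, 28, 1, 5 and 67 after PHx. KO 12, the mouse at 30 h, held the most, while KO 10 fell. Against 1 count in each WT group, the pooled ratio was 9.21 at baseline (95% counting interval 1.36 to 393.8) and 107.7 after PHx (19 to 4284). In the fit without a filter, Pax1 was called in the KO after PHx against baseline (log2 fold change 3.36, SE 0.94, adjusted p = 0.0192 with edgeR). The lowest levels of both Pax1 and Pax9 after PHx were in KO 10 and KO 11, the 2 mice at 40 h. With so few mice per time, hours and mouse cannot be told apart.

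The list of 13 targets and partners of PAX1 and PAX9 had 6 genes tested, with 3 called higher in the KO at baseline and 5 after PHx, none lower, where 11.1% and 16% of all genes were called higher. Of the 13, 7 had a higher pooled level in the KO at baseline and 6 no count, and after PHx 11 were higher and 2 had no count. Tbx18, a T-box factor of somite and ureter mesenchyme, was at 2.02 ± 0.205 CPM in the KO at baseline and 5.85 ± 3.40 after PHx, with no count in WT (SD, n = 5). Osr2, a palate and limb factor, was at 1.15 ± 0.759 and 2.08 ± 1.36 CPM, also with no count in WT. Msx1, a homeobox factor of tooth and limb buds, went from 0.131 ± 0.186 CPM in WT to 1.74 ± 0.397 in the KO at baseline.

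All 12 listed PRC2 subunits were tested. At baseline Epop was called higher and Eed lower, where 11.1% of all genes tested were called higher and 4.89% lower. After PHx Epop and Jarid2 were called higher and Eed lower, where these shares were 16% and 8.20%. Eed fell by 1.57 on the log2 scale at baseline (SE 0.22, adjusted p = 6.07e-05 with edgeR) and by 1.99 after PHx (SE 0.22, adjusted p = 4.39e-06). Epop, an elongin-binding accessory subunit, rose by 1.52 (SE 0.40, adjusted p = 0.0122) and 2.53 (SE 0.40, adjusted p = 0.000158). Jarid2, which helps recruit PRC2, was called after PHx, with 1.25 (SE 0.29, adjusted p = 0.00443) against -0.14 (adjusted p = 0.788) at baseline. The difference between the stages was 1.38 on the log2 scale (SE 0.41, adjusted p = 0.150) and was not called.

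Over the family, 3 of the 5 members tested were called higher after PHx in the KO, Pax3, Pax6 and Pax9, where 17.5% of all genes tested were. Pax9 passed the filter only with the KO libraries after PHx, and Pax3 was picked for its KO levels. Nothing is therefore read from this count. With the mouse as a block 1 was called, Pax6. In WT 0 of 5 were called by edgeR, with 1 at an unadjusted p under 0.05, and DESeq2 called 1, Pax6. Of all genes tested, edgeR called 11.4% higher and 8.68% lower in WT. Pax2 and Pax3 had no count in WT, Pax8 had 1 in each WT group and Pax9 had 1 after PHx alone. The WT test therefore says little about these members, and nothing is read from 0 of 5. For the difference between the responses 0 of 5 were called by edgeR, with 0 at an unadjusted p under 0.05. Of all genes tested, 0.389% were called by edgeR for this difference. DESeq2 called 0 of the 5 members, with 1 at an unadjusted p under 0.05, and its calls over all genes are given further below. Genes without a count in WT, such as Pax2 and Pax3, have no defined response there, so this test says little about them.

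**Figure D4:**
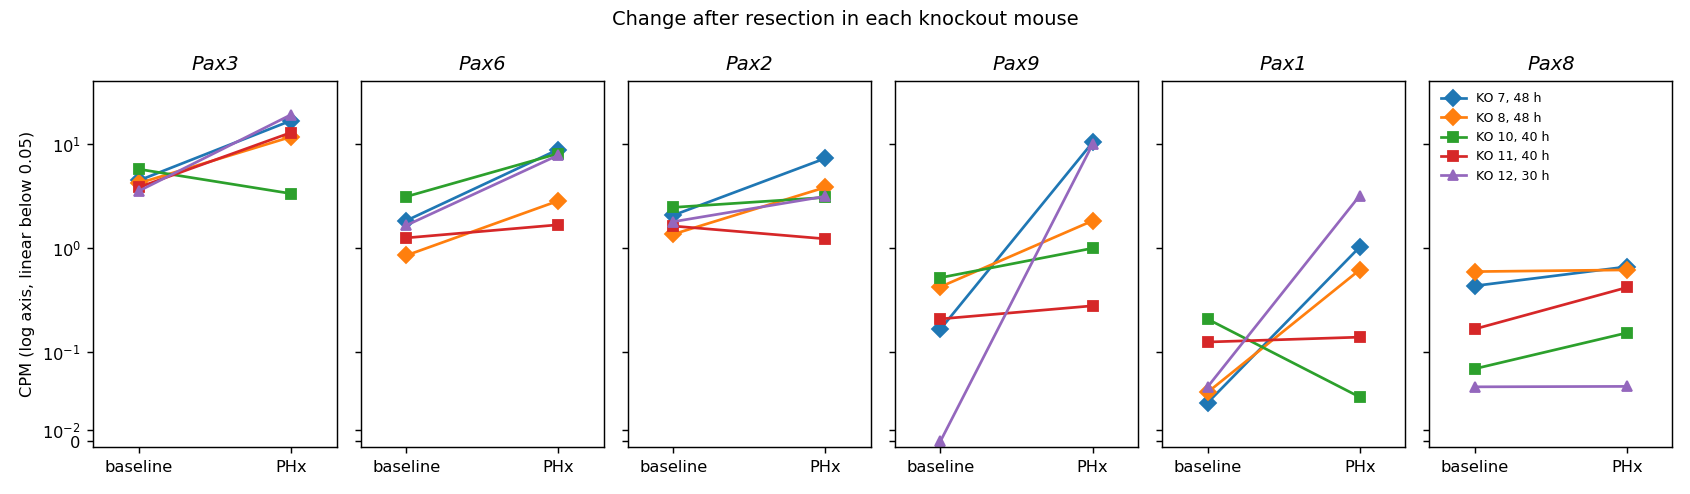
CPM (y axis, log scale, linear below 0.05) at baseline and after PHx (x axis) of 6 Pax genes in each of the 5 KO mice, with 1 line per mouse and symbols for hours after PHx. Pax6, Pax9 and Pax8 were higher after PHx in 5 of 5 mice and Pax3, Pax2 and Pax1 in 4 of 5. The lines of Pax8 are nearly flat in KO 8 and KO 12, the latter with 1 count at each stage. The share of all genes with such tallies was not computed.

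The members did not move as 1 unit among the mice. KO 10 had the lowest Pax3 level of the KO libraries after PHx but the second highest Pax6 level. KO 11 had 12.8 CPM of Pax3 and the lowest Pax2, Pax6 and Pax9 levels. KO 12 had the highest Pax3 and Pax1 levels and the lowest Pax8 level. KO 7 led for Pax2, Pax6, Pax8 and Pax9.

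Levels of different genes were compared per kilobase of exon. In the KO at baseline the order was Pax3 (0.700 CPM per kb), Pax2 (0.342), Pax6 (0.148), Pax5 (0.0625), Pax9 (0.0519), Pax8 (0.0430) and Pax1 (0.0202). Of the neighbours in this order, Pax3 and Pax2 alone had ranges that did not overlap. After PHx the order was Pax3 (2.05 CPM per kb), Pax9 (0.919), Pax2 (0.682), Pax6 (0.498), Pax1 (0.222), Pax8 (0.0623) and Pax5 (0.0142), and the ranges of all neighbours overlapped. Pax3 exceeded Pax9 in each of the 5 libraries, but in KO 10 it stood at 0.536 CPM per kb, below Pax6 (0.688) and Pax2 (0.564). The place of Pax9 in this order rests on KO 7 and KO 12, since it exceeded Pax2 in 2 of the 5 libraries.

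**Figure D5:**
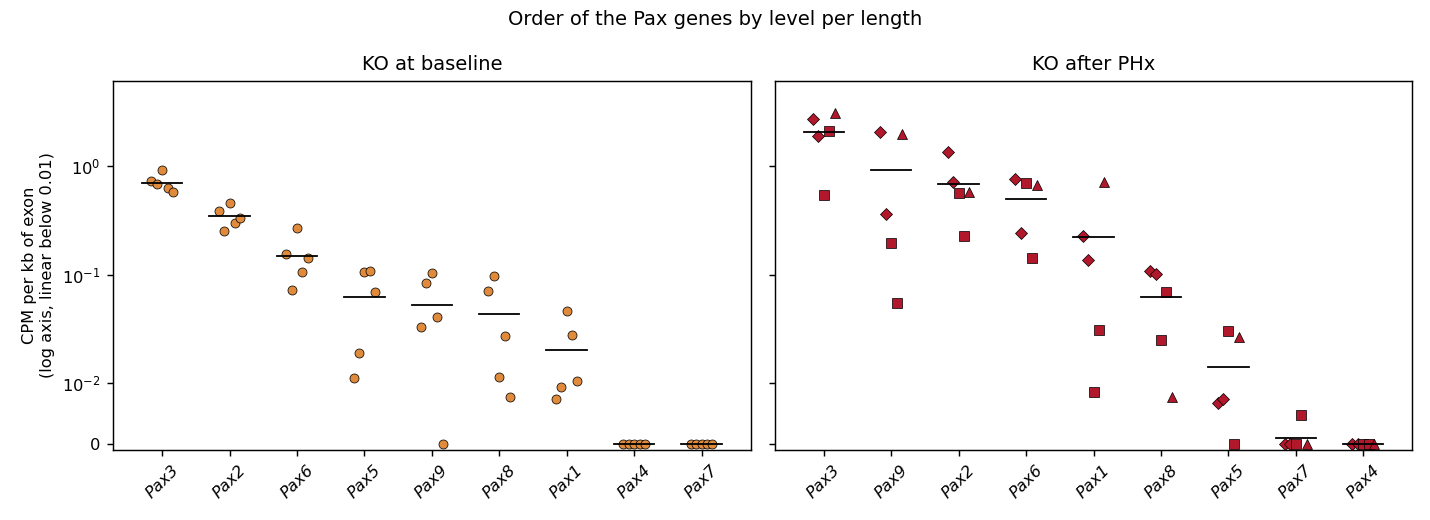
Level of each Pax gene in CPM per kb of exon (y axis, log scale, linear below 0.01) in the 5 KO libraries at baseline (left) and after PHx (right), ordered by mean (bars), with symbols for hours after PHx. Pax3 leads in both panels, at 0.700 and 2.05 CPM per kb, and the place of Pax9 after PHx rests on its 2 highest libraries.

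Some markers of other cells also differed between the genotypes. Summed over 7 stellate cell markers, the level was 155.0 to 255.7 CPM in WT and 392.2 to 455.4 in KO at baseline, and 149.8 to 229.2 and 247.4 to 459.8 after PHx, with all 7 detected in each group. For 7 cholangiocyte markers the sum was 34.1 to 79.1 and 73.8 to 383.7 CPM at baseline, and 35.2 to 255.5 and 134.3 to 594.6 after PHx. For 6 macrophage markers it was 95.8 to 165.6 and 223.0 to 285.2 CPM at baseline, and 56.4 to 230.9 and 58.3 to 246.5 after PHx. Of those tested, 4 of 7 stellate, 1 of 6 cholangiocyte and 2 of 6 macrophage markers were called higher in the KO at baseline, and 2, 4 and 1 after PHx. Over all genes tested, 11.1% were called higher at baseline and 16% after PHx, so a count of 1 of 6 is close to these shares. For 6 endothelial markers the sums were 153.8 to 182.4 and 176.1 to 210.5 CPM at baseline, and 68.0 to 128.9 and 76.2 to 151.6 after PHx, with median log2 fold changes of 0.07 and 0.06. The part of these cells in the Pax levels was not tested. Among the tissues that Pax genes specify, 6 of 8 pancreatic markers (Prss2, Cpa1, Cpb1, Ptf1a, Ins1 and Ins2) had no count in any group, while the elastase gene Cela1 was at 31.7 ± 6.46 CPM in WT and 8.42 ± 1.39 in KO at baseline (SD, n = 5). Of the 6 skeletal muscle markers, Acta1, Ckm and Myh4 were at 0 in WT and Myf5 and Myod1 in every group, while Mylpf, a myosin light chain, was at 0.653 ± 0.483 CPM in WT and 0.454 ± 0.168 in KO at baseline.

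The tested genes with the profile most like that of a member were found by the root mean square difference of centred log2(CPM + 0.1) values over the 20 libraries. For Pax3 the nearest was Tbx15, a T-box factor, at 0.34, with 5.59 CPM in KO at baseline and 13.7 after PHx, followed by Pitx1, Igf2bp1, Hoxa13 and Hoxa11. For Pax2 it was Hoxc9, at 0.26, followed by Tbx18, Hoxb13 and Hoxd8. For Pax6 it was Hoxa9, at 0.61, then Sox2, Tbx18, Osr2 and Otx1. For Pax9 it was Grik3, a glutamate receptor subunit, at 0.74, then Fgl2, En2, Wnt11 and Nkx2-2. Within the family the closest pair was Pax2 and Pax6, at 0.61. The 20 libraries share the genotype difference that set these genes apart, so likeness here is a description.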

How the data were processed

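Raw counts per Ensembl gene were deposited by the authors, 1 table per library. Per the series design text and the submitters' processing notes, reads were checked with FastQC 0.11.5, trimmed (fastp 0.20.0, and the notes also name Trimmomatic 0.36), aligned to mm10 and kept where uniquely mapped. The aligner, counter, strand setting and annotation are not given in the sources used here. Symbols came from GENCODE M21, which holds 46005 of the 46603 identifiers.

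In R 4.3.3, edgeR 4.0.16 (TMM, filterByExpr, 4 group means over 20 libraries, two-sided quasi-likelihood test) was fitted to 14661 genes, with Benjamini-Hochberg adjustment over all of them in each of 5 contrasts. A gene is called at an adjusted p under 0.05. DESeq2 1.42.0 was an alternative, as were library size alone, no filter, the compared groups alone, hours after PHx, the mouse as a block, and leaving out each library. In simulated counts with 200 genes changed by a log2 of 2, 72% were recovered for KO against WT at baseline (14338 genes), 65.5% after PHx (14303), 49% for the difference (14349), and 76% (14309) and 72% (14308) for PHx in WT and KO. CPM uses TMM-scaled totals. Folds over pooled counts take 3 counts as the floor for a group at 0, with 95% exact intervals for ratios. Both cover counting error only, as reads carry no molecular identifiers.

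The members and lists were chosen with earlier results of these data known. Named list genes are up to 3 called genes per list with the largest change and a mean of at least 1 CPM in a group. The labels tie both libraries to a mouse by number for 9 mice, and WT baseline replicate 1 has none. Residuals of the same mouse correlated from -0.05 to 0.15 in KO and 0.01 to 0.07 in WT. P-values measure the spread between mice. Some list and profile genes are not reported here.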

Additional observations from a re-analysis of the deposited data

How the results depend on the processing

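Called members were 5 for KO against WT at baseline and after PHx (Pax3 included, an outcome the filter fixed), 3 for PHx in KO, 0 for PHx in WT and 0 for the difference. At baseline the compared groups alone gave 3, all that then passed the filter, and leaving out 1 library gave 4 to 5 (5 in every such fit after PHx). Pax9 was lost without any 1 of the 5 WT baseline libraries, and without KO 8 or KO 10 at baseline. For PHx in KO the mouse as a replicate block gave 1, with Pax3 and Pax9 lost as printed above, and leaving out 1 library gave 2 to 4. Pax6 was lost in 7 of those 10 fits and without a filter (adjusted p = 0.0622, edgeR). For PHx in WT, library size alone, no filter and DESeq2 each gave 1, and leaving out 1 library gave 0 to 1, with Pax6 called without WT 4 after PHx. The call without a filter was Pax5. The difference gave 0 under every setting run. Among the 5 members that passed the filter, the block changed no other call. It was not run without a filter, so the calls of Pax5 and Pax1 in that fit were not checked with it. Pax8 changed sign for PHx in WT, from a log2 of -0.24 to 1.41 without WT baseline 2, 0.026 without WT 4 after PHx and 0.028 without WT 5 after PHx, and for the difference, from 0.80 to -0.86 without WT baseline 2, and ranged from -1.64 to 1.41 and from -0.86 to 2.19 over all such fits, on 2 WT counts and never called. The direction of the called Pax genes held under library size alone, which moved the median of all genes by 0.48, 0.38, 0.36 and 0.27 in the 4 contrasts other than the difference.

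Over the whole table, library size alone turned 1631 higher and 717 lower calls at baseline into 3521 and 113, 2342 and 1202 after PHx into 3897 and 296, 1677 and 1273 for PHx in WT into 3796 and 582, and 2561 and 1770 for PHx in KO into 4059 and 961. The compared groups alone gave 2846 and 2396 at baseline, 1127 and 218 after PHx, and 1052 lower for PHx in KO. No filter gave 345 lower at baseline. The block gave 889 higher for PHx in WT and 1575 in KO. The difference, 24 higher and 33 lower, became 9 higher (library size alone), 14 higher (no filter), 56 lower (hours), 2 and 5 (block), and 192 and 184 (DESeq2), and leaving out KO 10 after PHx gave 412 and 296. Leaving out 1 library also moved lower calls by over 1.5 times, to 309 to 476 at baseline (without KO 7, KO 10, KO 11, WT 3, WT 4 or WT 5), 757 (KO 7) or 2151 (KO 10) after PHx, 755 for PHx in WT (WT 4 after PHx), and 1098 (KO 7) and 1173 (KO 8) for PHx in KO. For the difference such fits gave 6 to 412 higher and 15 to 296 lower. At these depths 1 count is about 0.04 CPM, so changes of Pax1, Pax5, Pax7 and Pax8 rest on few reads.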

Other observations

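The nearest protein-coding gene on each side of the 9 members gave 18 flanking genes, of which 15 were tested. In the KO, 5 were called higher and 2 lower at baseline, where 11.1% and 4.89% of all genes tested were. After PHx 5 were called higher and 1 lower, where 16% and 8.20% of all genes were. The neighbours of Pax3 and Pax1 that were close to absent from WT entered the test only through the KO libraries, so their values are given without a p. Epha4, an ephrin receptor 586.2 kb away, went from 0.0959 CPM in WT to 1.49 in KO at baseline. Sgpp2, a sphingosine-1-phosphate phosphatase 113.2 kb away, went from 0.126 to 1.71 CPM. Beside Pax1, 167.7 kb away, the neural and islet factor Nkx2-2 had no count in WT at baseline and was at 0.171 CPM in KO at baseline and 1.64 after PHx. Foxa2, on the other side of Pax1, is a liver factor and had 31.5 CPM in WT and 26.98 in KO at baseline (adjusted p = 0.594 with edgeR).

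Next to Pax6, Rcn1 went from 4.97 to 10.6 CPM at baseline (log2 fold change 1.09, SE 0.24, adjusted p = 0.00455 with edgeR), while Elp4, an Elongator subunit 3.663 kb away on the other side, went from 13.3 to 8.06 CPM (-0.72, SE 0.22, adjusted p = 0.0267). Beside Pax2, which had no count in WT, neither Hif1an (adjusted p = 0.955) nor Slf2 (adjusted p = 0.529) was called. No member was set against its neighbours in a test.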
